A study of Mus musculus with 24 samples.

Results

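The genes described here encode the receptors and release channels that start tear secretion in the lacrimal gland (LG) when its nerves fire. They were the muscarinic acetylcholine receptors Chrm1 and Chrm3, the receptors for vasoactive intestinal peptide (VIP) Vipr1 and Vipr2, the alpha-1 adrenergic receptors Adra1a and Adra1b, the ATP-gated channel P2rx7, and the inositol trisphosphate (IP3) receptors Itpr1, Itpr2 and Itpr3. The 10 genes were chosen by name and matched to Ensembl identifiers, and all 10 were found among the 63862 genes listed in the 20 libraries that were compared.

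Tear fluid and protein are released when acetylcholine from parasympathetic nerves binds the M3 muscarinic receptor, the product of Chrm3, on acinar cells. The receptor acts through Gq proteins and phospholipase C, which makes IP3, and IP3 opens receptor channels in the endoplasmic reticulum that let stored calcium into the cytosol. VIP from the same nerves acts through Gs proteins and cyclic AMP, noradrenaline acts through alpha-1 receptors, and extracellular ATP opens P2X7 channels in the plasma membrane.

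The study sequenced messenger RNA from the LG of C57BL/6 mice and from LG stem cells (LGSCs) grown out of it. The tissue groups were LG of adult mice and of embryos at E17.5 or at E19.5 (E stands for embryonic day), with 3 libraries each, and the labels gave no age in days for the adult group. LGSCs came from dissociated LG of mice aged 6 to 8 weeks, and they grew as spheres in Matrigel in a serum-free medium with EGF, FGF10, Wnt3A and the kinase inhibitor Y-27632, all of which the 4 culture groups shared. The passage 2 spheres were taken at culture day 5 (2 libraries), day 7, day 10 and day 14 (3 libraries each), and 1 library of passage 10 spheres at day 7 was read by value only. Nothing in the labels says that replicates were separate animals or cultures, so p-values measure the spread between these libraries, which may be technical.

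Values are FPKM, the fragments of a gene divided by the length of its exons and by a fragment total of the library, 1 table per library. Whole read numbers were recovered from the FPKM steps, and the 20 libraries held 6434734 to 9258020 recovered reads on annotated genes. In adult replicates 1 and 2 the recovered reads were 2.67 and 2.57 times the total that the FPKM were divided by, against 0.832 to 1.13 times in the other libraries. In adult replicates 1 to 3, 60.4%, 59.6% and 31.3% of reads fell on the top 10 genes, and at most 8.07% did in the other 17 libraries. Comparisons with adult LG are therefore given on the deposited scale and, where the result differs, after rescaling to recovered reads, which moved the median log2 fold change of all genes by 0.58 (E17.5), 0.50 (E19.5) and 0.68 (LGSC day 7). Marker levels are given on the deposited scale alone. The labelled cell types were only partly visible in the tables. The epithelial markers Epcam and Krt8 and the housekeeping gene Gapdh were listed at 0 in all 20 libraries, while Cdh1, which encodes E-cadherin, stood at 388 to 916 FPKM in passage 2 LGSCs and 121 to 178 FPKM in tissue. The basal keratin gene Krt5 was at most 5.52 FPKM in the 20 libraries and 4930 FPKM in the passage 10 library, so a 0 or a low value in the 20 libraries is reported as listed and not as absence of the transcript.

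The 10 genes fell into 2 kinds. Chrm1, Chrm3, Vipr2 and P2rx7 averaged 0.5 FPKM or more over the tissue libraries and entered the tests there. Of these, Chrm1, Chrm3 and P2rx7 passed the same filter in the fit of day 7 LGSCs with adult LG, and Chrm3 and P2rx7 passed it in the 2 fits on culture days. Vipr1, Adra1a, Adra1b, Itpr1, Itpr2 and Itpr3 were below the filter in every fit. A gene that passes through its high groups alone is more likely to differ, so the counts of members below describe the tested members and are not a result about the list. Such were Vipr2 in tissue, at a mean of 0.0839 FPKM in adult LG, and Chrm1 in the fit with day 7 LGSCs, at 0.108 FPKM there. Their calls in these fits were favoured by the filter.

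**Figure D1:**
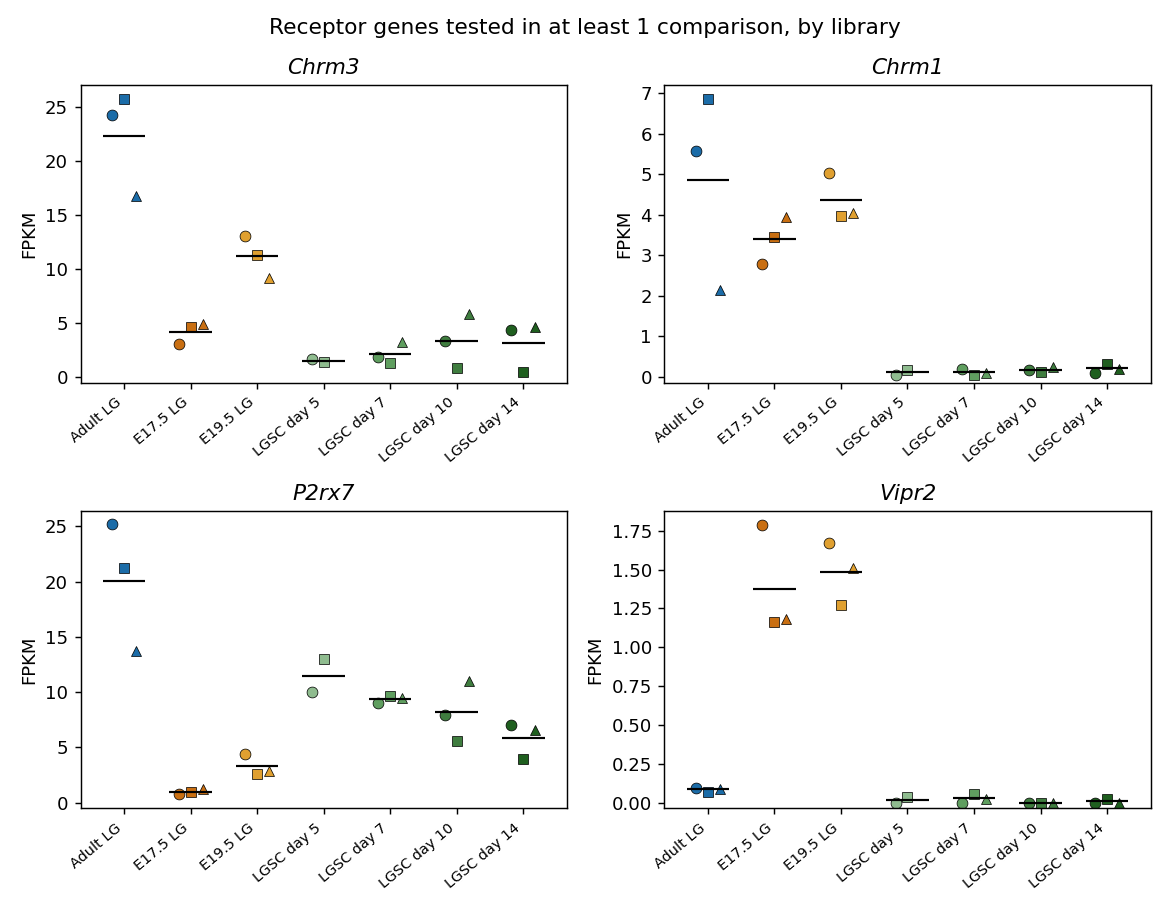
FPKM (vertical axis, linear) of Chrm3, Chrm1, P2rx7 and Vipr2 in each of the 20 libraries by group (horizontal axis); circles, squares and triangles are replicates 1, 2 and 3 and the black bars are group means. Chrm3 and P2rx7 were highest in adult LG, at means of 22.3 and 20.0 FPKM, Chrm1 was high in all 3 tissue groups, and Vipr2 was above 1 FPKM in the 6 embryonic libraries alone.

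In tissue, Chrm3 and P2rx7 were lower in the embryonic than in the adult gland and Vipr2 was higher. These 3 of the 4 tested members passed the test at E17.5 (54% of all 18578 genes did) and at E19.5 (54.2% of all genes), and Chrm1 passed it at neither stage. Between the embryonic stages 1 member, Chrm3, rose from E17.5 to E19.5, where 1.74% of all genes differed. In these bulk samples, fewer cells of a type and less RNA per cell cannot be told apart. The shares near 54% are a large background, and their make-up depended on the scale. At E17.5 the calls against adult LG comprised 5405 higher and 4634 lower genes, or 8450 and 1913 after rescaling (59.5% of genes), and at E19.5 5637 and 4440, or 8054 and 1842 after rescaling (56.8%). Groups did not overlap for 59.5% of genes between E17.5 and adult LG, 58.8% between E19.5 and adult LG, and 35.1% between the embryonic stages.

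Chrm3 is encoded on the minus strand of chromosome 13 (13:9875486-10360847 in GENCODE M21, GRCm38), a span of 485 kb in which the annotation places 6 other genes, 2 of them on the other strand. The counting is not stated to use strand, so reads shared with these genes cannot be told apart from those of Chrm3. Its promoter is shown with those of P2rx7, Vipr1 and Vipr2 because adult and embryonic libraries did not overlap for any of these 4 genes. Windows run from 250 bases before to 50 after the start in RefSeq (GRCm38.p6), written 5′ to 3′ on the gene's strand, and capitals mark the GC box GGGCGG in either direction, which 35.7% of all 32851 promoter windows of this length held.
Chrm3, chr13:10360754-10361053, minus strand: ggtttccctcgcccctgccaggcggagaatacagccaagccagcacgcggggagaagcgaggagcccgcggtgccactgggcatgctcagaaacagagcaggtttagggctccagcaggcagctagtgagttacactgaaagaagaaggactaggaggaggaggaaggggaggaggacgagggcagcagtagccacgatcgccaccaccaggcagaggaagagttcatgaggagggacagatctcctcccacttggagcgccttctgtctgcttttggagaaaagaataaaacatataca
P2rx7, chr5:122643677-122643976, plus strand: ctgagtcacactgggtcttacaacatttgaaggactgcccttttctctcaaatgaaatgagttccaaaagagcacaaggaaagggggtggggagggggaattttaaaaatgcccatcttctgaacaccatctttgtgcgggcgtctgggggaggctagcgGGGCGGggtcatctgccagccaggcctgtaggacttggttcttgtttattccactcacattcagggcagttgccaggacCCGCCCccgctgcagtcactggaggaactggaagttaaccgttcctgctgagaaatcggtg
Vipr1, chr9:121642466-121642765, plus strand: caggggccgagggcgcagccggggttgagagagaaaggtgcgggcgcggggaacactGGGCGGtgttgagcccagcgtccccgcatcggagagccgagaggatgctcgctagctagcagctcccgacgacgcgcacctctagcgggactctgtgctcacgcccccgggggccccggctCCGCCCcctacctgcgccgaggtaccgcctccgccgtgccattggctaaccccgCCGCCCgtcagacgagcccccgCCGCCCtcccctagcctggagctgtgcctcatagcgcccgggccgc
Vipr2, chr12:116077476-116077775, plus strand: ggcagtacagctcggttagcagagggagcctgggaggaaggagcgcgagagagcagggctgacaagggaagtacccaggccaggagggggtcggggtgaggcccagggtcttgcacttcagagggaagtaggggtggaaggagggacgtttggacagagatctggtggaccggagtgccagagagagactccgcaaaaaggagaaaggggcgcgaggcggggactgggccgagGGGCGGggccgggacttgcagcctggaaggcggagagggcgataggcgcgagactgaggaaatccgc

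The Chrm3 window held no GC box, the P2rx7 window 2, the Vipr1 window 4 and the Vipr2 window 1. None of these overlapped another motif searched. P2rx7, for which RefSeq gives a second window not shown, also had 1 AP-1 site (TGANTCA, in 7.81% of all windows) and Vipr1 had 1 CCAAT box (in 37.4%), and none of the 4 held a TATA box (TATAAA, in 13.6%) or a full cyclic AMP response element (TGACGTCA, in 1.79%). The GC content was 57.3% for Chrm3, 53.3% for P2rx7, 73.7% for Vipr1 and 65.3% for Vipr2, against a median of 52.7%. Chrm3 and P2rx7, both lower in the embryonic gland, thus shared none of the motifs searched. Windows were found for 7 of the 10 genes, which were these 4 with Adra1b, Itpr2 and Itpr3.

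Chrm3 and P2rx7 had the highest FPKM of the set in adult LG. Adult replicates 1 to 3 held 24.3, 25.8 and 16.8 FPKM, E17.5 replicates 3, 4.61 and 4.92 FPKM, and E19.5 replicates 13.1, 11.3 and 9.13 FPKM. No value of one tissue group reached into another, and the order was adult, E19.5, E17.5. On the log2(FPKM + 1) scale E17.5 LG was 2.17 ± 0.23 (SE) below adult LG (limma, adjusted p = 8.4e-05), and mean FPKM was 5.34 times higher in the adult. Against adult LG, E19.5 LG stood at a log2 fold change of -0.93 ± 0.23 (adjusted p = 0.00829). From E17.5 to E19.5 Chrm3 rose by 1.24 ± 0.23 (adjusted p = 0.0393), to 2.67 times the mean FPKM, but this call was lost without any 1 of the 6 embryonic libraries (adjusted p 0.0682 to 0.161). After rescaling to recovered reads the adult values became 9.10, 10.1 and 15.2 FPKM and overlapped those at E19.5, which became 13, 11.1 and 8.15 FPKM. The E19.5 difference from adult LG was then -0.07 (adjusted p = 0.827) and that of E17.5 -1.22 (adjusted p = 0.00344), which relative to the median of all genes were -0.66 and -1.86. So the deficit at E17.5 passed the test on both scales, and that at E19.5 did not pass it after rescaling.

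Chrm1, which encodes the M1 receptor (19:8663789-8683587, plus strand), was in tissue at a few FPKM at every stage. Adult replicates held 5.56, 6.86 and 2.14 FPKM, E17.5 replicates 2.79, 3.44 and 3.95 FPKM, and E19.5 replicates 5.04, 3.96 and 4.05 FPKM. On the deposited scale both embryonic groups lay inside the adult range, in which replicate 3 was far the lowest. E17.5 LG differed from adult LG by -0.32 ± 0.31 on the log2 scale (adjusted p = 0.417) and E19.5 LG by -0.03 ± 0.31 (adjusted p = 0.941). Neither sign held after rescaling, where the differences were 0.48 (adjusted p = 0.0539) and 0.68 (adjusted p = 0.0138), or -0.16 and 0.09 relative to the median of all genes. The rescaled adult values were 2.08, 2.67 and 1.94 FPKM, all below every rescaled embryonic library. Those were 2.88 to 4.07 FPKM at E17.5 and 3.61 to 5.02 FPKM at E19.5. Without adult replicate 3, on the deposited scale, Chrm1 passed the test as lower in both embryonic groups (-0.72, adjusted p = 0.00514, and -0.43, adjusted p = 0.0456). That fit kept only the 2 adult libraries whose recovered reads far exceeded the FPKM total. The direction of Chrm1 against adult LG is therefore not settled by these libraries. Between E17.5 and E19.5 LG it did not overlap and did not pass the test (0.29 ± 0.31, adjusted p = 0.767). In the 11 passage 2 LGSC libraries Chrm1 was 0.0394 to 0.312 FPKM (median 0.157), below every tissue library.

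**Figure D2:**
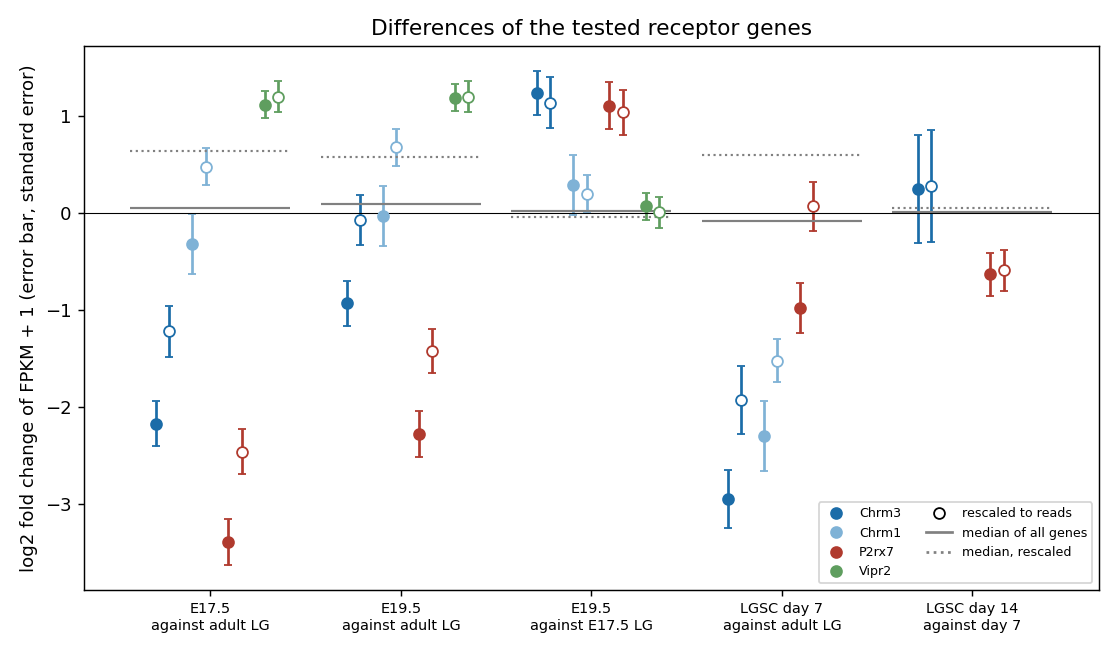
Log2 fold change of FPKM + 1 (vertical axis, error bars are standard errors) of the tested members in 5 comparisons (horizontal axis); filled points use the deposited scale, open points the values rescaled to recovered reads, and grey lines are the median of all genes on the deposited (solid) and rescaled (dotted) scale. In the comparisons with adult LG the points of Chrm3, Chrm1 and P2rx7 lie higher after rescaling, Chrm3 at E19.5 going from -0.93 to -0.07 and P2rx7 in day 7 LGSCs from -0.98 to 0.07, while P2rx7 and Chrm3 at E17.5 remain below 0 at -2.46 and -1.22.

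The VIP receptors had opposite orders. Vipr1, which encodes VPAC1, was 0.786, 0.653 and 0.543 FPKM in adult LG (11, 12 and 24 reads), listed at 0 in all 3 E17.5 libraries, and 0.0394, 0.0192 and 0.0439 FPKM at E19.5. Vipr2, which encodes VPAC2, was 0.0929, 0.0707 and 0.0881 FPKM in adult LG (1, 1 and 3 reads), 1.79, 1.16 and 1.18 FPKM at E17.5, and 1.67, 1.27 and 1.51 FPKM at E19.5. No adult library overlapped an embryonic library for either gene. On the log2(FPKM + 1) scale Vipr2 exceeded its adult level by 1.12 ± 0.14 in E17.5 LG (adjusted p = 2.8e-04) and by 1.19 ± 0.14 in E19.5 LG (adjusted p = 2.1e-04), and by 1.2 at both stages after rescaling. The scale understates so low a gene: with a pseudocount of 0.1 the differences were 2.98 and 3.10. E17.5 and E19.5 overlapped for Vipr2 (difference 0.07 ± 0.14, adjusted p = 0.908). Vipr1 was under the filter, and with no filter on low FPKM it passed the test as lower in both embryonic groups (-0.73, adjusted p = 1.4e-04, and -0.68, adjusted p = 2.3e-04), where 29.1% and 28% of all genes were called. Vipr2 shares its span with 1 gene on the other strand, and reads of the 2 cannot be told apart either.

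Markers of other cells moved with the embryonic and adult groups. The summed level of the 5 fibroblast markers was 4190 to 5120 FPKM in the embryonic libraries and 142 to 277 FPKM in adult LG, and that of the 4 endothelial markers 105 to 174 against 34.8 to 101 FPKM. The 11 nerve and glia markers summed to 45.1 to 54.4 FPKM at E17.5, 34.4 to 42.7 FPKM at E19.5 and less in every adult library, of which Uchl1, Prph and Sox10 were listed at 0 in all 20 libraries and the cholinergic markers Chat and Slc18a3 and the VIP gene itself at 0 in adult LG. Smooth muscle and myoepithelial markers (6 genes) reached 148 to 708 FPKM in adult LG, 258 to 447 FPKM at E17.5 and 1230 to 1380 FPKM at E19.5. Acinar markers (5 genes) summed to 171000 to 808000 FPKM in adult LG, nearly all of it the secreted product Mucl2, and to at most 46.0 FPKM in the embryonic gland. The part of these cells in the receptor differences was not tested.

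The alpha-1 receptors of the set, Adra1a and Adra1b, were scarce. Adra1d, an alpha-1 gene outside the set, had means of 1.07 FPKM in adult LG, 3.88 FPKM at E17.5 and 6.49 FPKM at E19.5. Its means over the culture days were 0.411 to 2.15 FPKM. Adra1a was 0.190, 0.542 and 0.376 FPKM in adult LG (4, 15 and 25 reads), was listed at 0 in 4 of the 6 embryonic libraries and did not exceed 0.0393 FPKM in the others. With no filter on low FPKM both embryonic groups were called lower for it, with a log2 fold change of -0.43 in each (adjusted p = 0.00649 for E17.5 LG and 0.00704 for E19.5 LG). It was listed at 0 in all 11 passage 2 LGSC libraries, and it was also called lower in day 7 LGSCs than in adult LG with no filter (-0.45, adjusted p = 0.038). Adra1b was above 0 in each of the 20 libraries and nowhere above 0.665 FPKM. Its tissue values were 0.123, 0.280 and 0.349 FPKM in adult LG, 0.0760, 0.184 and 0.185 FPKM at E17.5 and 0.0676, 0.263 and 0.151 FPKM at E19.5. These overlapped throughout, while those of Adra1a did not overlap between adult and embryonic LG.

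P2rx7 encodes a channel opened by high extracellular ATP and known from leukocytes as well as from exocrine epithelium. It lies on the plus strand of chromosome 5 (5:122643911-122691432). Adult replicates held 25.2, 21.2 and 13.7 FPKM, E17.5 replicates 0.775, 0.921 and 1.19 FPKM, and E19.5 replicates 4.39, 2.61 and 2.88 FPKM. The 3 groups did not overlap and kept the order of Chrm3. Mean FPKM was 20.8 times higher in adult LG than at E17.5 (log2 fold change -3.39 ± 0.24, adjusted p = 1.1e-05) and 6.09 times higher than at E19.5 (-2.28 ± 0.24, adjusted p = 1.1e-04). These 2 calls held under every alternative, with log2 values of -2.46 and -1.42 after rescaling. From E17.5 to E19.5 the difference was 1.11 ± 0.24 with no overlap, and it missed the threshold (adjusted p = 0.0667), which it passed with limma-voom on recovered reads (1.75, adjusted p = 0.0276, where 2.76% of genes did). The leukocyte markers (8 genes, Cd68 at 0 in all 20 libraries) summed to 63.1 to 298 FPKM in adult LG. Their sums were 12.3 to 15.9 FPKM at E17.5 and 27.5 to 34.5 FPKM at E19.5. Cd14 made up most of the adult sum, at 45.4, 68 and 268 FPKM, against 2.86 to 12.5 FPKM in embryonic LG. Cd14 also reached 371 FPKM in the LGSC spheres, where Ptprc was at most 0.0489 FPKM. The summed level is therefore not read here as a level of leukocytes. Ptprc, which marks leukocytes in general, was 3.64 to 6.18 FPKM in adult LG and 1.17 to 1.61 FPKM in embryonic LG, and the macrophage gene Adgre1 was 7.79 to 18.5 FPKM in adult LG and 5.90 to 18.1 FPKM in embryonic LG. These marker values were not rescaled. Recovered reads of adult replicates 1 and 2 were 2.67 and 2.57 times the FPKM total, and rescaling would lower their values by these factors. The adult excess of the leukocyte markers is thus not shown to hold after rescaling. The part of leukocytes in the P2rx7 difference was not tested.

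LGSC spheres at day 7 were lower than adult LG in Chrm3, Chrm1 and P2rx7, the 3 members tested, where 35.2% of all 17698 genes were called in either direction. At day 7, Chrm3 was 1.8, 1.25 and 3.18 FPKM, Chrm1 was 0.200, 0.0394 and 0.0861 FPKM, and P2rx7 was 9.05, 9.60 and 9.50 FPKM. None of these reached the lowest adult library. Chrm1 entered this fit through its adult values alone. The log2 fold changes against adult LG were -2.95 ± 0.30 for Chrm3 (adjusted p = 9.8e-04), -2.30 ± 0.36 for Chrm1 (adjusted p = 0.00427) and -0.98 ± 0.26 for P2rx7 (adjusted p = 0.0283). Adult LG had 10.7 times the mean Chrm3 FPKM and 2.14 times the mean P2rx7 FPKM of day 7 LGSCs. The differences of Chrm3 and Chrm1 also passed the test after rescaling (-1.93, adjusted p = 0.0058, and -1.52, adjusted p = 0.00268, where 44% of genes did). P2rx7 did not: it was 0.07 above adult LG after rescaling (adjusted p = 0.824), or -0.53 relative to the median of all genes, and on the deposited scale its call was lost when any library but adult replicate 3 was left out (adjusted p up to 0.094). Across the 4 culture days Chrm3 was 0.485 to 5.81 FPKM, overlapping E17.5 LG, and P2rx7 was 3.95 to 13 FPKM, above every E17.5 library.

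In the spheres the endothelial and fibroblast markers were listed far below their tissue levels. The endothelial markers summed to at most 0.255 FPKM and the fibroblast markers to at most 1.41 FPKM in the 11 libraries. Of the leukocyte markers, the general marker Ptprc was at most 0.0489 FPKM and Adgre1 was listed at 0 in all 11, while Cd14, which made up most of the summed level, reached up to 371 FPKM. The smooth muscle and myoepithelial markers summed to up to 184 FPKM and the nerve and glia markers to up to 144 FPKM. The part of such cells in the sphere values was not tested.

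Of the remaining receptors, Vipr1 was listed at 0 in 8 of the 11 sphere libraries and at no more than 0.0194 FPKM in the others. Vipr2 was listed at 0 in 7 of the 11 and reached 0.0573 FPKM at most. With no filter on low FPKM, Vipr1 was lower in day 7 LGSCs than in adult LG (-0.72, adjusted p = 0.00949, where 16.7% of genes were called). On the deposited scale both muscarinic receptors, both VIP receptors and Adra1a were thus lower in each day 7 library than in every adult library. Of the genes past the filter, which Vipr1, Vipr2 and Adra1a were not, 52.4% did not overlap in either direction. Vipr2 rested on 1, 1 and 3 adult reads, its libraries overlapped after rescaling, and it was not called with no filter (adjusted p = 0.267).

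**Figure D3:**
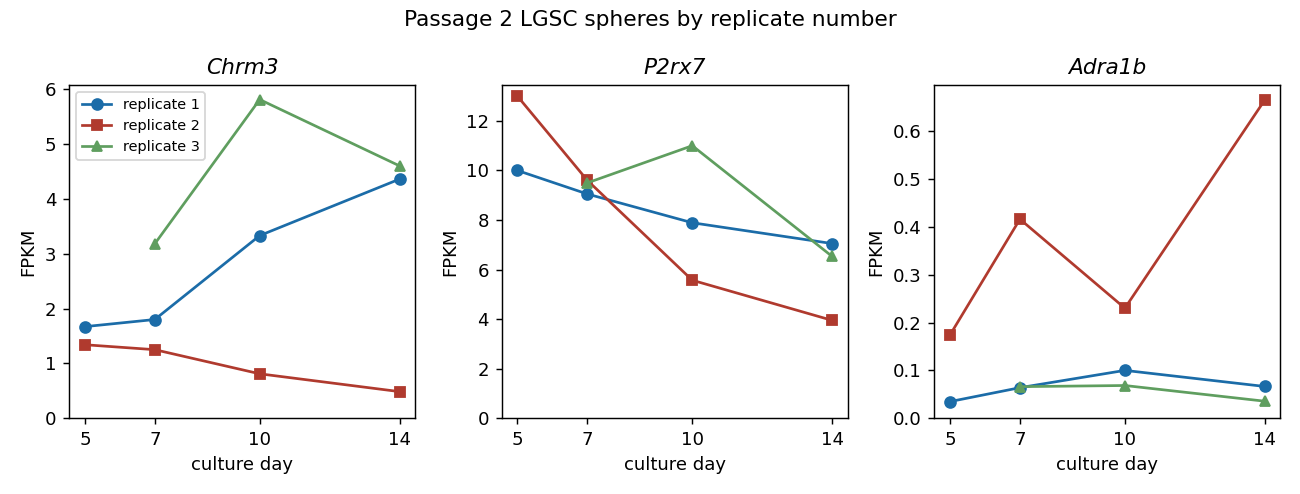
FPKM (vertical axes, linear, from 0) of Chrm3, P2rx7 and Adra1b in passage 2 LGSC spheres at culture days 5, 7, 10 and 14 (horizontal axes), 1 line per replicate number. In replicate 2, Chrm3 was lowest and Adra1b highest at each of the 4 days, and P2rx7 fell from 13 to 3.95 FPKM.

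Over culture time no member passed the test in the comparison of day 14 with day 7, and neither did any of the 15744 genes tested (0%, with 9.89% at an unadjusted p under 0.05 in limma, and 0 genes called by limma-voom). These fits did not pair libraries. With the replicate number as a block limma called 0 genes, and limma-voom called 116 of 12112 (0.958%), with 0 members among them. The study itself gave a list of genes that differed between these days, tested with DESeq2. P2rx7 was 9.05, 9.60 and 9.50 FPKM at day 7 and 7.05, 3.95 and 6.53 FPKM at day 14, without overlap, as for 17.4% of all genes (difference -0.63 ± 0.22, adjusted p = 0.469). At day 5 it was 10.0 and 13 FPKM and at day 10 it was 7.89, 5.57 and 11 FPKM. Across the 4 days its log2 slope was -0.096 ± 0.026 per day (adjusted p = 0.0767, where 2.14% of 15584 genes passed the test). Same-numbered LGSC libraries deviated together from their group means, and with the replicate number as a block the slope was -0.102 per day and passed the test (adjusted p = 0.0388, where 5.02% of genes did). Replicates 1 and 2 fell at every step, from 10.0 to 7.05 and from 13 to 3.95 FPKM, and replicate 3 rose from 9.50 to 11 FPKM before it fell to 6.53 FPKM.

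Chrm3 went in different directions by replicate number. It rose at each step in replicate 1, from 1.67 FPKM at day 5 through 1.8 and 3.33 to 4.36 FPKM at day 14. In replicate 2 it fell at each step, from 1.34 through 1.25 and 0.810 to 0.485 FPKM. In replicate 3 it was 3.18, 5.81 and 4.6 FPKM at days 7, 10 and 14. The means therefore hid a split, and the slope of 0.053 ± 0.060 per day did not pass the test (adjusted p = 0.676). Adra1b showed the reverse order: replicate 2 was the highest at each of the 4 days, with 0.174, 0.416, 0.230 and 0.665 FPKM, against 0.0348 to 0.100 FPKM in the other 7 libraries. Adra1b rested on 1 to 20 reads a library, and the cause of the split was not tested.

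The replicate 2 spheres also stood apart in marker genes. Krt18, a keratin of simple and glandular epithelium, was 130 to 176 FPKM in the 4 replicate 2 libraries and 689 to 1730 FPKM in the other 7. The actin gene Acta2, expressed in myoepithelial cells, was 1.02 to 4.72 FPKM in replicate 2 and 9.31 to 180 FPKM in the others. Tubb3, a tubulin gene of neurons, was 65.1, 143, 49.4 and 7.04 FPKM in replicate 2 at days 5, 7, 10 and 14 and at most 14.4 FPKM in the others. Cdh1 was lower in replicate 2 at days 7, 10 and 14 (388 to 445 FPKM) than in the others (553 to 916 FPKM). Leaving out replicate 2 of day 14 gave the highest Chrm3 difference between day 14 and day 7, at 0.88, and leaving out replicate 3 of day 14 the lowest, at -0.08.

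The IP3 receptors, the channels that all Gq-coupled receptors of the set converge on, were nearly unlisted. Itpr1 was 0.0905, 0.0344 and 0.229 FPKM in adult LG, 0.105, 0.0736 and 0.0341 FPKM at E17.5, 0.0499, 0.0304 and 0.0278 FPKM at E19.5 and at most 0.0859 FPKM in passage 2 LGSCs. Itpr2, the isoform that together with Itpr3 is known for calcium release in exocrine acinar cells, was at most 0.152 FPKM in the 20 libraries (20 reads). Itpr3 was listed at 0 in all 20. No group stood apart from all others in any of the 3 genes. With no filter on low FPKM neither Itpr1 nor Itpr2 passed the test in any of the 6 comparisons. The passage 10 library, made against another gene list, held 1.12 FPKM of Itpr1 (489 reads), 5.06 FPKM of Itpr2 (1780 reads) and 34.6 FPKM of Itpr3 (7411 reads). That is above every day 7 library of passage 2 for each of the 3. The contrast was not particular to these genes. Of the 5333 genes at 10 FPKM or more in the passage 10 library that both lists held, 50.6% had a day 7 mean of passage 2 under 0.1 of the passage 10 value, and 10.8% were listed at 0 in all 20 libraries. Among these were Plcb3 (39.1 FPKM in the passage 10 library), which encodes a phospholipase C beta isoform, and Adcy6 (12.1 FPKM), an adenylyl cyclase. Passage, gene list and library cannot be told apart here, so the near absence of IP3 receptor reads in the 20 libraries says nothing about the channels themselves.

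**Figure D4:**
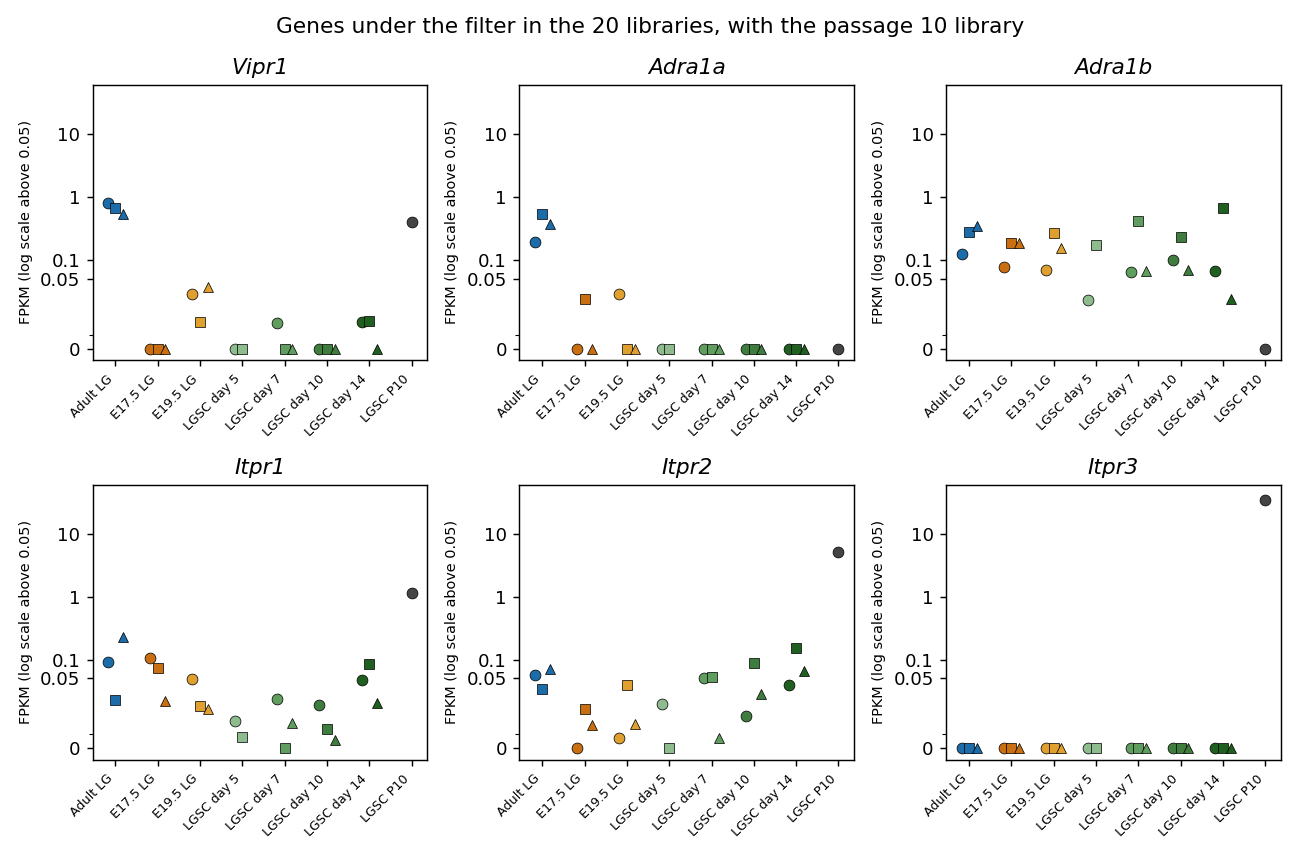
FPKM (vertical axes, linear to 0.05 and logarithmic above) of the 6 members under the filter, by group with the passage 10 library at the right; circles, squares and triangles are replicates 1, 2 and 3. Among the 20 libraries Vipr1 and Adra1a were listed mainly in adult LG, Adra1b stood at 0.0348 to 0.665 FPKM, and Itpr1, Itpr2 and Itpr3 reached 1.12, 5.06 and 34.6 FPKM in the passage 10 library alone.

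The genes with the most similar patterns were sought for the 3 members with the widest range of group means, among 10664 genes of at least 1 FPKM, by the root mean square difference of log2(FPKM + 1), each centred on its own mean over the 20 libraries. Nearest to P2rx7 were Tmem238 (0.41), the polarity gene Crb3 (0.41) and the lipid transfer gene Stard10 (0.45), against a median of 1.24 over all genes. Each of the 3 had its highest group mean in adult LG and its lowest at E17.5, as P2rx7 had, with Stard10 at means of 571 and 51.4 FPKM. Nearest to Chrm3 were Bend7 (0.38), the long intergenic noncoding RNA gene Gm38910 (0.38) and Cmtm8 (0.42), against a median of 1.31. Nearest to Chrm1 were Adam11 (0.21), the serine protease gene Prss41 (0.26) and Tm6sf1 (0.29), against 1.17. These are descriptions over libraries that share their group and, in adult LG, their scale.

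The rest of the pathway was read from 5 lists of 97 genes, the counts of which follow for genes tested. List genes that pass the filter through their high groups alone are more likely to differ, so these counts are not a result about the lists. In the fit with day 7 LGSCs such were, among others, P2rx6, Plcb2, Atp2a3 and Pde4a. Their day 7 means were 0.198, 0.0186, 0.0570 and 0.0397 FPKM, and their calls there were favoured by the filter. Of 25 other receptors of the same families, 18 were tested in tissue: 5 were higher and 5 lower at E17.5 than in adult LG, and 8 were higher and 4 lower at E19.5 (7 and 3, and 8 and 3, after rescaling). The shares over all genes were 29.1% higher with 24.9% lower in E17.5 LG and 30.3% with 23.9% in E19.5 LG, or 48.5% and 11%, and 46.3% and 10.6%, after rescaling, and the list counts that follow are to be read against these shares. The median log2 fold change was -0.07 and 0.13, against 0.05 and 0.09 for all genes. The purinergic receptors split. P2rx4, whose product is an ATP-gated channel often found beside P2X7, had 22.1 ± 7.45 FPKM (SD, n = 3) in adult LG and 1.40 ± 0.0877 FPKM at E17.5 (-3.21, adjusted p = 1.3e-05), with 2.16 FPKM at E19.5 (-2.81). P2rx3 was 8.01 FPKM in adult LG and 0.634 FPKM at E17.5 (-2.43), and P2rx6 was 4.87 and 0.331 FPKM (-2.13), and both were as low at E19.5 (-2.45 and -2.04). P2rx1, known from smooth muscle, went the other way, from 0.762 FPKM in adult LG to 8.42 FPKM at E17.5 (2.45) and 7.85 FPKM at E19.5 (2.36). P2rx2 (1.58 at E17.5, 1.01 at E19.5) and the alpha-1D adrenergic receptor gene Adra1d (1.31 and 1.94) were also higher in embryonic LG, with P2rx5 at E17.5 (0.91) and P2ry14 at E19.5 (1.72). P2ry6, a receptor for UDP, was lower at E17.5 (-0.94), but not after rescaling (-0.22, adjusted p = 0.631). The P2X genes thus split by member between adult and embryonic LG, and the other calls named kept their sign after rescaling.

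In day 7 LGSCs 1 of 15 tested receptors of this list was higher and 5 lower than in adult LG, and 4 and 4 of 12 after rescaling. Of all genes 14.2% were higher and 21.1% lower, or 33.4% and 10.7% after rescaling. The Gq-coupled ADP receptor gene P2ry1 was higher, at 12 ± 3.96 against 2.20 ± 0.690 FPKM (SD, n = 3; log2 fold change 1.99, adjusted p = 0.0036). P2rx3 (-2.46), P2rx4 (-2.48), P2rx6 (-2.28) and P2ry6 (-2.06) were lower. The ATP and UTP receptor gene P2ry2, chosen after its values were seen, had means of 5.39 to 13.2 FPKM over the 4 culture days and 3.08 FPKM in adult LG. At day 7 it did not pass the test on the deposited scale (adjusted p = 0.118), and it did after rescaling (adjusted p = 0.037).

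Among 16 Gq and phospholipase C genes, 11 were tested in tissue. At E17.5 1 was higher and 5 lower than in adult LG, and at E19.5 1 and 3, but after rescaling 2 were higher and none lower at both stages, so the lower calls rest on the deposited scale. The 1 higher gene that both scales gave was Plce1, phospholipase C epsilon, at 4.97 FPKM at E17.5 and 1.12 FPKM in adult LG (1.54, adjusted p = 5.3e-04) and 4.79 FPKM at E19.5 (1.49). Among the lower ones on the deposited scale were Plcg2 (-1.28 at E17.5, -0.63 at E19.5), Gnaq (-0.71 and -1.10) and, at E17.5, Gna14 (-1.22) and Rgs4 (-0.82). Gna14, a Gq-class alpha subunit, rose from 4.33 ± 0.203 to 10.8 ± 1.17 FPKM between the embryonic stages (1.15, adjusted p = 0.0376, or 0.0448 after rescaling), in the same interval as Chrm3. In day 7 LGSCs 2 of 12 tested genes were higher than in adult LG, Plcg2 (75.5 against 25.0 FPKM, 1.56) and Plcd4 (1.36), and 3 were lower, among them Plcb2 (0.0186 against 4.38 FPKM, -2.36) and the Gq inhibitor Rgs2 (-2.31, not called after rescaling, adjusted p = 0.19). After rescaling the counts were 3 and 1 of 10.

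The 23 genes of store-operated entry and calcium pumps had 11 tested members in tissue. At E17.5 4 were higher and 6 lower than in adult LG, and at E19.5 2 and 5, which became 4 and 1, and 4 and 2, after rescaling. The entry channel Orai1 and the store sensor Stim1 were lower on the deposited scale (Orai1 -1.41 and -1.25, Stim1 -1.11 and -1.08), and not after rescaling (Orai1 -0.54, adjusted p = 0.214, and Stim1 -0.13, adjusted p = 0.481, at E17.5). Saraf, which limits store-operated entry, was lower on both scales (-1.41 and -1.48, or -0.69 and -0.80 rescaled). Atp2a2, which encodes the widespread pump SERCA2, was lower at E19.5 on both scales (-1.52, or -0.71 rescaled) and at E17.5 on the deposited scale alone (-1.05). Saraf and Atp2a2 were at no more than 4.81 and 13.6 FPKM in the 20 libraries, against 30.3 and 104 FPKM in the passage 10 library. Their differences therefore describe the listed values and not the transcripts as a whole. The plasma membrane pump gene Atp2b1 was higher at E17.5 (0.64).

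Atp2a3, which encodes the pump SERCA3 that refills the stores, had the widest swing of these genes. It was 37.3 ± 13.8 FPKM in adult LG, 13.5 ± 2.91 FPKM at E17.5, 83.3 ± 5.05 FPKM at E19.5 and 0.0570 ± 0.0618 FPKM in day 7 LGSCs (SD, n = 3). It rose from E17.5 to E19.5 by 2.55 (adjusted p = 0.00563, or 0.0599 after rescaling), and in day 7 LGSCs it was 5.12 lower than in adult LG on the log2 scale (adjusted p = 1.7e-04). Atp2a3 entered the fit with day 7 LGSCs through its adult values alone, so this last call was favoured by the filter. In the same spheres Atp2b1 was higher (28.4 against 8.62 FPKM, 1.61), and Saraf (-1.29) and Orai1 (-0.62, adjusted p = 0.0495) were lower, both on the deposited scale alone, 1 gene higher and 4 lower of 10 tested in all (4 and 1 of 9 after rescaling).

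The Gs and cyclic AMP side, on which VIP receptors act, had 13 of 20 genes tested in tissue. At both embryonic stages 8 were higher than in adult LG (29.1% and 30.3% of all genes were), with 2 lower at E17.5 and 1 at E19.5, and the median log2 fold change was 0.99 and 0.47, against 0.05 and 0.09 for all genes (10 higher and 1 lower, and 9 and 1, after rescaling). Named by size were the adenylyl cyclase gene Adcy8 (12.9 FPKM at E19.5 and 1.44 FPKM in adult LG, 2.60, and 1.73 at E17.5), the kinase subunit genes Prkar1b (2.44 and 2.26) and Prkacb (1.41 and 1.27), and Gnas, which encodes the Gs alpha subunit (10.9 FPKM at E17.5 and 1.64 FPKM in adult LG, 2.16, and 1.62 at E19.5). The phosphodiesterase gene Pde4a was lower (-1.51 and -1.71) and Pde4b was lower at E17.5 (-0.75), the latter not after rescaling (0.12). Adcy1 fell from E17.5 to E19.5 (1.30 to 0.415 FPKM, -0.69, adjusted p = 0.047, or 0.0596 after rescaling), the 1 gene of this list called in that interval, named after its values were seen. In day 7 LGSCs Prkar1a (172 against 72.3 FPKM, 1.23) and Prkacb (0.85) were higher, and Pde4b (-2.07), Pde4a (-1.91) and Adcy5 (-1.35) lower, of 10 tested. After rescaling 4 were higher and 1, Pde4a, lower.

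Of the 13 partners of IP3 receptors and enzymes that remove IP3, 12 were tested in tissue. At E17.5 2 were higher and 4 lower than in adult LG, and at E19.5 3 and 4, which became 6 and 0 at both stages after rescaling. Bcl2 (1.16 and 1.30) and the IP3 phosphatase gene Inpp5a (0.94 and 0.76) were higher on both scales, with Mrvi1 at E19.5 (0.87). The kinase genes Itpkb (-0.92 and -1.37) and Itpkc (-0.52 and -0.50), Erp44 (-1.40 and -1.20) and Ahcyl1 (-0.46 and -0.78) were lower on the deposited scale alone. In day 7 LGSCs 2 of 12 tested genes were higher than in adult LG and 3 lower (6 and 0 after rescaling). Itpkc was higher (24.7 against 10.7 FPKM, 1.07, adjusted p = 0.0335), and Itpkb (-1.46) and Calr (-1.03) were lower, the last 2 not after rescaling. Calr, at 1.06 to 7.50 FPKM in the 20 libraries, stood at 255 FPKM in the passage 10 library. Ahcyl1, at no more than 1.85 FPKM in the 20 libraries, stood there at 27 FPKM. No gene of the 5 lists passed the test between day 14 and day 7 or over culture day, on the deposited scale or after rescaling. The list genes were not counted in the fits with the replicate number as a block.

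**Figure D5:**
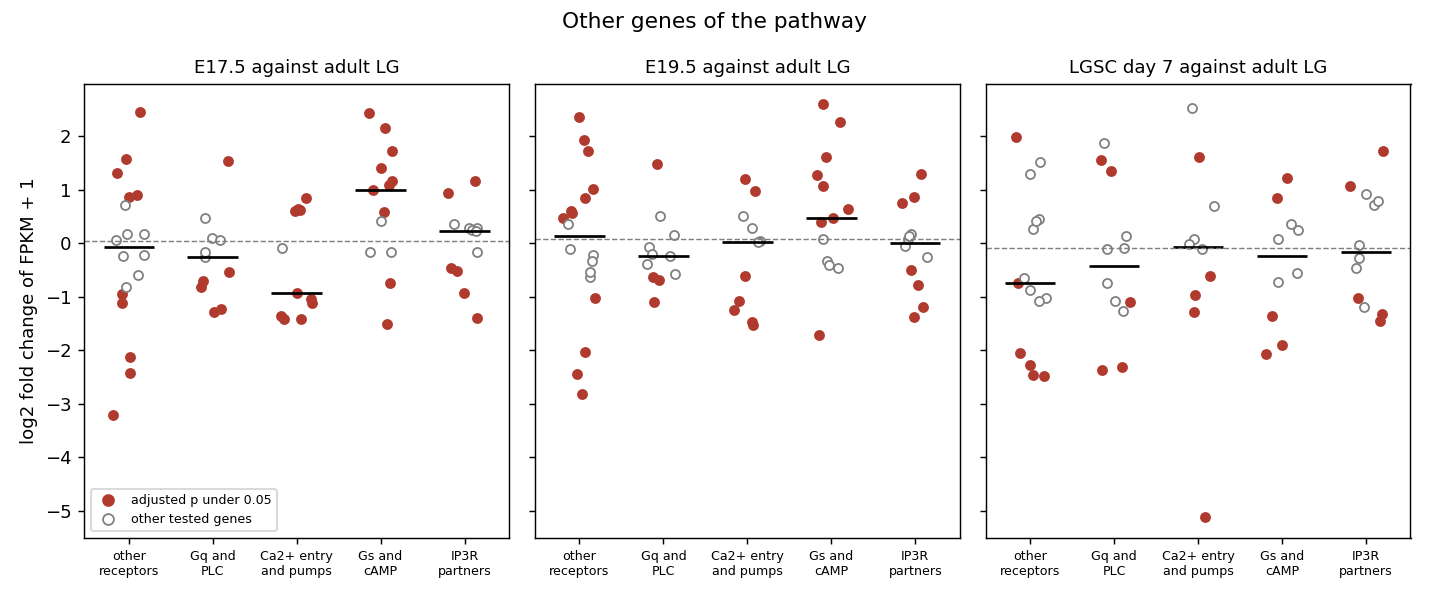
Log2 fold change of FPKM + 1 (vertical axis) of the tested genes of the 5 lists (horizontal axis) in 3 comparisons with adult LG on the deposited scale; red points passed the test, open points did not, black bars are list medians and the dashed line is the median of all genes. The Gs and cyclic AMP list sits above that line in embryonic LG, at medians of 0.99 and 0.47. Atp2a3, which passed the filter of that fit through adult LG alone, is the lowest point in day 7 LGSCs at -5.12.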

How the data were processed

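Messenger RNA of mouse LG and LGSCs had been selected on poly-A, made into NEBNext Ultra libraries, which do not mark strand, and read as paired ends on an Illumina instrument. Per the labels, the submitters' processing notes name CASAVA 1.8, HISAT2 2.0.5, featureCounts 1.5.0-p3 and the build NCBIM37. The authors deposited 1 table of FPKM per library. They list 63862 genes (52636 Ensembl identifiers, of which 52489 are in GENCODE M21, and 11226 assembled loci), and the passage 10 table lists 52747. The read total behind the FPKM is not given in the sources used here. The study tested counts with DESeq2, and a count test was not the main test here because the tables hold FPKM. Of 24 samples, 21 had a table, and the other 3 were not analysed here.

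From the deposited values, log2(FPKM + 1) was tested with limma 3.58.1 (R 4.3.3, lmFit and eBayes with trend) on genes averaging 0.5 FPKM or more in the libraries of a fit, with Benjamini-Hochberg adjustment over all of them at 0.05. The 9 tissue libraries shared 1 fit, day 7 LGSCs and adult LG another (6 libraries), days 7 and 14 another (6 libraries), and the 11 passage 2 LGSC libraries gave a slope over culture day. Tests are two-sided. Comparisons with adult LG share the 3 adult libraries. Read numbers came from FPKM steps and GENCODE M21 exon lengths (92.6% to 93.6% of values whole within 0.01 read up to 1000 reads), and they served for rescaling and for limma-voom. As library sizes limma-voom took the totals that the FPKM were divided by, so it kept the deposited scale and does not check that scale. Coordinates are those of GENCODE M21 (GRCm38), not of the build in the notes. Alternatives were a pseudocount of 0.1, no filter, rescaling, limma-voom, the replicate number as a block, other sets of libraries and each library left out. Rescaling with a pseudocount of 0.1, and the block with limma-voom, were added after seeing the data. Numbers paired the LGSC libraries: the same-numbered ones deviated together (mean correlation of deviations from group means 0.493 over all days, lowest 0.284), but not the tissue libraries (mean -0.014). Within a list, of the called genes averaging 1 FPKM or more in the fit, up to 4 per direction with the largest fold change were named, except for some genes that are not reported here. The members and gene lists were chosen with earlier results of these data known.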

Additional observations from a re-analysis of the deposited data

Results flagged for a closer look

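The passage 10 spheres, a single library outside the comparisons, listed 4 members above every day 7 library of passage 2: Vipr1 at 0.399 FPKM (55 reads), Itpr1 at 1.12 FPKM, Itpr2 at 5.06 FPKM and Itpr3 at 34.6 FPKM. The library was made against another gene list, and these differences were not tested. It listed Chrm3 at 0.659 FPKM, Chrm1 at 0.0583 FPKM and P2rx7 at 6.09 FPKM, and Vipr2, Adra1a and Adra1b at 0.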

How the results depend on the processing

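The calls of Chrm3, P2rx7 and Vipr2 at E17.5, and of P2rx7 and Vipr2 at E19.5, against adult LG kept their direction and threshold under every alternative run. With no filter, 5 members were called in each of the 3 comparisons with adult LG in place of 3 (29.1%, 28% and 16.7% of all genes were called), Vipr1 and Adra1a being added, and leaving out each library gave 3 to 4, 3 to 4 and, for day 7, 2 to 3. Between E19.5 and E17.5 the 1 call became 0 with no filter, 0 after rescaling, 0 with the replicate block, 0 without any 1 library, and 2 with limma-voom or with only the 2 groups. With a pseudocount of 0.1 it stayed 1, but Chrm3 lost its call (adjusted p = 0.0505) and P2rx7 gained one (1.66, adjusted p = 0.0481). The slope over culture day gave 1 call, P2rx7, with the replicate block and 1 with the block and limma-voom (adjusted p = 0.018), in place of 0. In tissue and between day 7 and adult LG the numbers do not pair libraries, and the block there took the P2rx7 call at day 7 (adjusted p = 0.0619). Beyond the calls named, the block changed no member call. Signs that turned were those of Chrm1 at E17.5 (0.48 rescaled, 0.63 rescaled with a pseudocount of 0.1), Chrm1 at E19.5 (0.68, 0.87, 0.10 with limma-voom, and -0.43 to 0.23 with a library left out), P2rx7 at day 7 (0.07 and 0.08) and Chrm3 between day 14 and day 7 (-0.08 to 0.88 with a library left out). The cause was not tested. Calls over all genes for E19.5 against E17.5 went from 323 to 162 with a pseudocount of 0.1, 186 rescaled, 100 with the block, 2144 with only the 2 groups and 50 to 197 with a library left out. The slope gave 334 calls, 82 with no filter, 783 with the block, 1186 with the block and limma-voom, 0 at days 7, 10 and 14 alone and 11 to 384 with a library left out, day 14 against day 7 gave 116 in place of 0 with the block and limma-voom, and day 7 against adult LG gave 3770 to 8135 in place of 6238 with a library left out. Vipr1, Adra1a and Adra1b, with at most 24, 25 and 20 reads in a library of the comparisons, cannot carry small differences at this depth.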

Other observations

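Of the 97 genes of the 5 pathway lists, 50 stood at 1 FPKM or more in the passage 10 library, and 21 of these had a day 7 mean of passage 2 under 0.1 of that value. Listed at 0 in all 20 libraries of the comparisons were Plcb3, Adcy6, the store-operated channel gene Orai3 (9.8 FPKM in the passage 10 library), the adenylyl cyclase gene Adcy9 (1.76 FPKM) and the alpha-2A adrenergic receptor gene Adra2a (0.277 FPKM).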
